A study of Homo sapiens with 18 samples.

Results

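The genes described here are 10 neighbouring genes of the zinc finger cluster on 19p13.2: ZNF823, ZNF440, ZNF69, ZNF700, ZNF433-AS1, ZNF433, ZNF844, ZNF788P, ZNF136 and ZNF44. They were chosen by name because most of them had near-zero counts in both libraries of PCGF6-KO clone 2, and ZNF136 was included as a neighbour that kept its counts. The clone 2 values therefore selected these genes and are given below as a description without a test. The 10 genes are among 57133 genes in the count table, and all 10 were among the 17672 genes that passed the filter on low counts. ZNF433 passed through its counts in clone 1 alone, since its WT counts were below the minimum of 10.

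RNA-seq was performed on WT PGP1 cells, an established human induced pluripotent stem cell line, and on PCGF6-KO cells made from it by CRISPR-Cas9 deletion in the first exon of PCGF6 on both alleles. PCGF6 is the defining subunit of the variant Polycomb complex PRC1.6. The knockout cells were clone 1 (genotype KO_1) and clone 2 (genotype KO_2), with 2 libraries for each of WT, clone 1 and clone 2. All cells were maintained in mTeSR1 on Matrigel without differentiation. Each knockout genotype is 1 clone, so the effect of the deletion and the features of a single clone cannot be told apart within a clone.

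C2H2 zinc finger proteins with a KRAB domain form the largest family of transcription factors in the human genome. The fingers bind DNA, often within transposable elements, and the KRAB domain recruits TRIM28, which brings the histone methyltransferase SETDB1 to deposit H3K9me3. Their genes arose largely by tandem duplication and lie in clusters on chromosome 19, where neighbouring genes share sequence. Little is known of what most single members of the 19p13.2 cluster regulate.

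In GRCh38 (GENCODE release 44) the 10 genes lie on chromosome 19 from 11721265, the end of ZNF823, to 12294883, the start of ZNF44, a span of 573.6 kb. ZNF823, ZNF433 and ZNF44 are on the reverse strand and the other 7 on the forward strand. ZNF433-AS1 is a long non-coding RNA gene that runs antisense across ZNF433, and ZNF788P is annotated as a transcribed pseudogene. The other 8 encode zinc finger proteins.

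The region before the transcription start is shown for 4 genes that had lost their counts in clone 2, because these neighbours share a pair of short sequences there. The promoters are the 250 bases before the RefSeq start in GRCh38.p14, given 5′ to 3′ on the strand of the gene. Capitals mark CCAATCA, of the kind bound by the factor NF-Y, and TGTCACTCA, both picked after the sequences had been read. The regions are chr19:11814023-11814272 (forward strand), chr19:11887532-11887781 (forward strand), chr19:12064481-12064730 (forward strand) and chr19:12294884-12295133 (reverse strand).
ZNF440: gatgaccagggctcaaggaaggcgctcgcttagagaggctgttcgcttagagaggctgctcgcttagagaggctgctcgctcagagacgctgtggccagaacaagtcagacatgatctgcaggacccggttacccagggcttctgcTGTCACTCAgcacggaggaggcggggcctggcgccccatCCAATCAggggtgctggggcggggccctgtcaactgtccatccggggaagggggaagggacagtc
ZNF69: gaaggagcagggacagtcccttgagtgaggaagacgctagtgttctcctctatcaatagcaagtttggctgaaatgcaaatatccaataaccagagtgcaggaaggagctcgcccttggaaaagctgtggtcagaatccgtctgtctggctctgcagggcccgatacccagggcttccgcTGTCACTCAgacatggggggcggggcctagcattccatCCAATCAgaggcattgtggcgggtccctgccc
ZNF844: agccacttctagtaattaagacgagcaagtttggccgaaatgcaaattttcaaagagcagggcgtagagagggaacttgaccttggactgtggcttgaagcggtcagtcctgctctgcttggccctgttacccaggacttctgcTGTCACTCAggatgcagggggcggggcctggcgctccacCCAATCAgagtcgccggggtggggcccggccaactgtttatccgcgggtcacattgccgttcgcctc
ZNF44: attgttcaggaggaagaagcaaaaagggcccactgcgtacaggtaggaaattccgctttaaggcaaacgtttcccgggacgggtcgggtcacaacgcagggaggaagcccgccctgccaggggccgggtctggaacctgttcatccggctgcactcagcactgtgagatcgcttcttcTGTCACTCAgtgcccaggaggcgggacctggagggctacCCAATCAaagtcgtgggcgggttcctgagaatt

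RefSeq held a promoter for 9 of the 10 genes, all but ZNF788P. On both strands, CCAATCA was present in 8 of the 9 promoters, compared with 7.98% of 27305 promoters of all genes and 19.7% of the 508 promoters of genes with a ZNF symbol. The exception was ZNF433-AS1. TGTCACTCA was present in 7 of the 9, against 0.549% of all promoters and 8.86% of those of ZNF genes, and was absent from ZNF823 and ZNF136. In ZNF440, ZNF69, ZNF700, ZNF433, ZNF844 and ZNF44, TGTCACTCA began 38 or 39 bases before CCAATCA. ZNF136 held CCAATCA at 2 positions, 130 and 93 bases before its start.

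Both sequences were also found in other promoters of the cluster, with CCAATCA in 14 and TGTCACTCA in 6 of 16 neighbouring zinc finger genes. The E-box CACGTG, which MAX binds, was in none of the 9 promoters (7.73% of all promoters). GCGGGAA, an E2F6-type sequence, was in 1 of the 9, ZNF136 (6.66% of all promoters). The 9 promoters held 7 to 18 CpG, with a median of 13 against 12 over all promoters. Pairwise identity was highest for ZNF700 and ZNF844 at 69.4%, and the median of 36 pairs was 55%. These matches describe letters in the window and not binding.

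The libraries summed to between 15877396 and 18918609 counts. PCGF6, the deleted gene, kept 268 and 300 counts in the WT libraries, 99 and 103 in those of clone 1, and 187 and 159 in those of clone 2, and the deletion leaves most of its exons in place. Pluripotency markers summed to 10310 to 10770 CPM (counts scaled for library size) in WT, 8066 to 8116 in clone 1 and 7477 to 7680 in clone 2. DNMT3B alone averaged 3020, 1581 and 1154 CPM in the same order, and POU5F1 averaged 1495, 1555 and 1461. Of the 10 markers, 1 was called lower in clone 1 and 2 in clone 2, and none was called higher. Over all tested genes, 8.8% and 12.5% were called lower. Of 10 mesendoderm markers fixed as a list, 9 were tested and all 9 were called higher in both clones (16.0% of all tested genes in clone 1 and 16.9% in clone 2), with summed levels of 4.73 to 5.77 CPM in WT, 663 to 669 in clone 1 and 866 to 868 in clone 2. Of the 9, 2 reached the count minimum in both WT libraries, so the count is a description. SOX17, MESP1 and HAND1 were at 0 in WT. Neuroectoderm markers summed to 10.7 to 14.2 CPM in WT, 9.10 to 10.5 in clone 1 and 11.03 to 11.72 in clone 2. The part of these shifts in the values below was not tested, and in bulk RNA fewer expressing cells and less RNA per cell cannot be told apart.

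Neither clone 2 library exceeded 3 counts for 9 of the 10 genes, and for 7 of them both libraries were at 0. Of all 17672 tested genes, 90 (0.509%) stayed at or under 3 counts in both clone 2 libraries. Summed over these 9 genes, the WT libraries held 518 and 539 counts, those of clone 1 held 1460 and 1343, and those of clone 2 held 3 and 2. Counting intervals and bounds given for clone 2 cover counting error only.

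ZNF788P, the pseudogene, had the most counts of the 10 in WT, with 246 and 239 counts there, 253 and 291 in the pair of clone 1 libraries, and 0 in both libraries of clone 2. WT and clone 1 libraries lay close together and clone 2 was at least 168-fold lower than WT, with the bound set at 3 counts over the group. ZNF844 was counted 97 and 101 times in the WT libraries, 181 and 175 times in those of clone 1, and 1 and 0 times in those of clone 2. Its clone 2 level was 205-fold lower than WT (95% counting interval 36.4 to 8147).

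ZNF823 yielded 38 and 46 counts from WT cells, 163 and 135 from clone 1, and 2 and 2 in the pair of clone 2. Clone 2 was 21.8-fold lower than WT (8.19 to 81.8) and 68.3-fold lower than clone 1 (26.4 to 252). It was the single one of the 9 with a count in both clone 2 libraries.

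ZNF440 was counted 19 and 34 times in the WT libraries, 202 and 196 times in those of clone 1, and not at all in clone 2. ZNF700 gave 30 and 32 reads in the WT pair, 250 and 191 in the pair of clone 1, and none in clone 2. ZNF44 yielded 17 and 17 counts from WT cells, 148 and 102 from clone 1, and none in clone 2. In all 3 genes every clone 1 library exceeded every WT library, and clone 2 was at least 18.3-fold, 21.4-fold and 11.8-fold lower than WT for ZNF440, ZNF700 and ZNF44. Against clone 1, the bounds were 122-fold, 135-fold and 76.4-fold.

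ZNF69 gave 30 and 23 reads in the WT pair, 126 and 124 in the pair of clone 1, and none in clone 2. ZNF433-AS1 gave 39 and 43 reads in the WT pair, 96 and 97 in the pair of clone 1, and none in clone 2. ZNF433, on the opposite strand, yielded 2 and 4 counts from WT cells, 41 and 32 from clone 1, and none in clone 2. Clone 2 was at least 18.3-fold lower than WT for ZNF69 and at least 28.3-fold lower for ZNF433-AS1. For ZNF433 the bound was 2.07-fold against WT, whose counts leave little room for a difference, and 22.3-fold against clone 1.

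**Figure D1:**
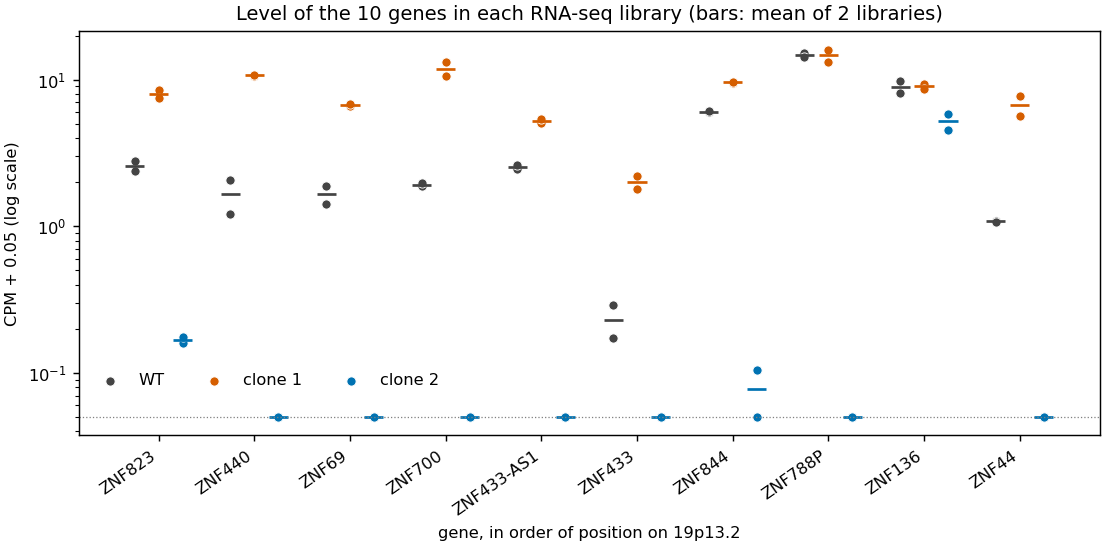
Level of each of the 10 genes in every library, in CPM plus 0.05 on a log axis, in order of position on the chromosome (points, single libraries; bars, mean of 2 libraries; dotted line, 0 counts). Clone 2 sits at or near the dotted line for 9 genes, and ZNF136 stays at 4.52 and 5.80 CPM.

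ZNF136 lies between ZNF788P and ZNF44, and gave 131 and 164 counts in the WT libraries, 178 and 157 in the pair of clone 1, and 82 and 93 in that of clone 2. Mean levels were 8.94 ± 1.26 CPM in WT cells, 8.97 ± 0.476 CPM in those of clone 1 and 5.16 ± 0.901 CPM in those of clone 2 (SD, n = 2 each). Both clone 2 libraries were below all 4 other libraries, and the ratio of WT to clone 2 was 1.75 (counting interval 1.44 to 2.12). With 82 and 93 counts, ZNF136 is, of the 10, the gene nearest above the limit of 3 counts per library, and ZNF823, with 2 in each, is the nearest below it.

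Levels were also compared per kb of the gene length given with the counts. ZNF788P had the highest WT level (2.59 ± 0.0976 CPM per kb, SD, n = 2), followed by ZNF136 (1.65 ± 0.232), ZNF823 (1.04 ± 0.122) and ZNF844 (0.907 ± 0.0102). ZNF433 had the lowest (0.0589 ± 0.0268). Of the 9 pairs next to each other in this order, 1 overlapped between libraries, ZNF700 with ZNF69. In clone 1 the order differed. ZNF700 (3.55 ± 0.547 CPM per kb) and ZNF823 (3.24 ± 0.316) were highest and overlapped each other, ZNF788P (2.57 ± 0.345) overlapped ZNF69 (2.29 ± 0.0558), and ZNF440 overlapped ZNF136. ZNF433 was again lowest, at 0.634 ± 0.0882.

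The comparison of clone 1 with WT does not compare the clone 2 values that selected the genes. It was tested with edgeR's quasi-likelihood test across all 17672 genes, in a fit of the 3 groups together. The clone 2 libraries therefore enter its estimate of the spread. The 9 genes near zero in clone 2 could pass the filter only through WT or clone 1, unlike tested genes in general. Of the 10 genes, 8 were higher in clone 1 and none was lower, where 16.0% of all tested genes were called higher and 8.8% lower. A gene was called where p, adjusted by Benjamini-Hochberg, was under 0.05 and the log2 fold change exceeded 0.6 in size. Of the 9 genes that reached the count minimum in both WT libraries, 7 were called higher. In the same 8 genes both clone 1 libraries exceeded both WT libraries, which held for 36.6% of all tested genes. The median log2 fold change of the 10 was 1.85, beside 0.00 over all tested genes.

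The largest fold changes in clone 1 were those of ZNF433, ZNF440, ZNF44 and ZNF700. ZNF433 rose from 0.181 ± 0.0826 to 1.95 ± 0.272 CPM (SD, n = 2 each), which is 3.38 on the log2 scale (standard error 0.52). ZNF433 passed the filter through clone 1 alone, so its value is a description and no p-value is given. Its fold change rests on 6 WT counts, and it was not tested with a filter of at least 10 counts in at least 4 libraries or without either clone 1 library, which left 7 of the 10 genes called. ZNF440 rose from 1.602 ± 0.616 to 10.7 ± 0.153 CPM, which is 2.73 on that scale (standard error 0.22, edgeR adjusted p = 2.0e-10). ZNF44 rose from 1.03 ± 0.0179 to 6.68 ± 1.51 CPM, a change of 2.69 (standard error 0.27, adjusted p = 9.8e-09, edgeR), and ZNF700 from 1.88 ± 0.0532 to 11.8 ± 1.82 CPM, a change of 2.65 (standard error 0.21, adjusted p = 6.8e-11, edgeR).

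ZNF69 rose from 1.61 ± 0.328 to 6.71 ± 0.163 CPM, 2.06 on the log2 scale (standard error 0.24, edgeR adjusted p = 9.2e-08), and ZNF823 from 2.55 ± 0.299 to 7.98 ± 0.777 CPM, with 1.65 (standard error 0.20, adjusted p = 1.9e-07, edgeR). ZNF433-AS1 rose from 2.49 ± 0.129 to 5.18 ± 0.223 CPM (1.06, standard error 0.23, adjusted p = 0.00047, edgeR). ZNF844 rose from 6.01 ± 0.0674 to 9.55 ± 0.113 CPM (0.67, standard error 0.16, adjusted p = 0.0014, edgeR), close to the fold change threshold. The antisense gene and ZNF433 were thus called in the same direction. Their exons overlap in part and the strand setting is not given, so reads of one may be counted for the other.

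The other two did not pass. ZNF788P was at 14.7 ± 0.556 CPM in WT and 14.6 ± 1.96 CPM in clone 1 (log2 fold change −0.01, standard error 0.13, adjusted p = 0.96, edgeR), and ZNF136 differed by 0.01 (standard error 0.15, adjusted p = 0.98, edgeR). These p-values measure the spread between libraries, which the labels do not tie to separate cultures.

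**Figure D2:**
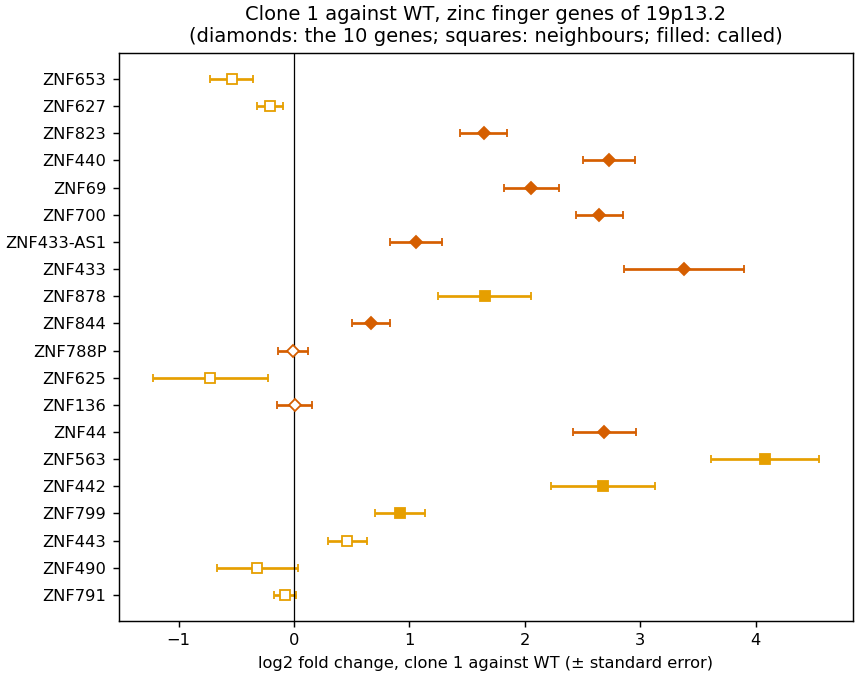
Log2 fold change of clone 1 against WT (x axis, bars show the standard error) for zinc finger genes of 19p13.2 in order of position (diamonds, the 10 genes; squares, tested neighbours; filled symbols, called; ZNF441 is left out because it had 0 counts in WT). The 8 filled diamonds lie between 0.67 and 3.38, and ZNF788P and ZNF136 lie at 0.

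Against the same WT libraries, most of these genes lay on opposite sides in clone 1 and clone 2. In 8 of the 10 genes both clone 1 libraries were above and both clone 2 libraries below both WT libraries, which held for 1.85% of the tested genes, and the clone 2 side of this pattern is what chose the genes. The clone 2 comparisons share libraries with that of clone 1 against WT, and no test of the 10 genes in them is used.

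The study took the 4 PCGF6-KO libraries as 1 group against WT. That group holds the clone 2 libraries that chose the genes, so its values are given as a description without a test. ZNF440 had 5.34 ± 6.16 CPM (SD, n = 4) in the pooled knockout libraries beside 1.602 CPM in WT, and ZNF788P had 7.31 ± 8.52 CPM (n = 4) beside 14.7 CPM. For both genes the SD exceeded the mean, with the clone 1 libraries high and the clone 2 libraries at 0.

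The silent stretch in clone 2 extended past the listed genes. From ZNF823 to the end of ZNF442 at 12365905, a stretch of 644.6 kb whose edges were chosen after the values had been seen, 23 genes had a count in some library. Of these, 22 had at most 3 counts in each clone 2 library. Of the 16 with at least 10 counts in some library, 15 were at or below this limit, and ZNF136 was the exception. The limit also takes in genes beside ZNF136 that kept a few reads in clone 2. ZNF625 gave 15 and 13 reads in the WT pair, 6 and 13 in that of clone 1 and 3 and 2 in that of clone 2. It was called lower in clone 2 against WT but not against clone 1. ZNF20, which had few counts everywhere, gave 5 and 3, 5 and 5, and 1 and 2 in the same order. ZNF878 gave 9 and 13 reads in the WT pair, 49 and 30 in the pair of clone 1 and none in clone 2. ZNF563 gave 4 and 2 reads in the WT pair and 54 and 65 in that of clone 1, and ZNF442 gave 8 and 4 and then 37 and 51, with none in clone 2 for either. Against clone 1, these neighbours were at least 24.1-fold, 36.4-fold and 26.9-fold lower.

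Of 18 neighbouring zinc finger genes listed for the locus, 11 were tested. Against WT, 5 were higher in clone 1 (16.0% of all tested genes) and 6 were lower in clone 2 (12.5% of all tested genes). Those higher in clone 1 were ZNF878, ZNF563, ZNF442, ZNF441 and ZNF799, of which the last 2 are named after their values were seen. All but ZNF799 were below the count minimum in a WT library and passed the filter through clone 1 alone, so that the count of 5 is a description. ZNF441 gave 0 and 0 reads in the WT pair, 39 and 36 in the pair of clone 1, and none in clone 2. ZNF799, which lies beyond ZNF442, gave 45 and 39 reads in the WT pair, 92 and 88 in the pair of clone 1, and 37 and 35 in the pair of clone 2.

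Some genes beyond the silent stretch were lower in clone 2 but kept their counts. ZNF443 gave 103 and 89 reads in the WT pair, 164 and 136 in the pair of clone 1 and 46 and 55 in that of clone 2, and clone 2 differed from WT by −0.97 on the log2 scale (standard error 0.21, edgeR adjusted p = 0.00027). ZNF791 gave 599 and 675 reads in the WT pair and 320 and 339 in that of clone 2 (−0.998, standard error 0.10, adjusted p = 6.6e-09, edgeR). Their clone 2 means were 51.2% and 50.2% of the WT means, and that of ZNF136 was 57.7%. MAN2B1, which encodes lysosomal alpha-mannosidase, was at 57.0% and PLPPR2, on the other side of the 10 genes, at 62.0%. CACNA1A, the gene of a neuronal calcium channel subunit, fell to 4.73% of WT in clone 2 and was also lower in clone 1 (log2 fold change −2.13, adjusted p = 4.1e-13, edgeR).

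Outside the stretch but within 1 Mb of the 10 genes, all tested genes called between the clones were lower in clone 2. Of 28 tested genes upstream, 2 were lower and none higher in clone 2 against clone 1, with a median log2 difference of −0.07. Of 34 tested genes downstream of ZNF442, 5 were lower and none higher, with a median of −0.10. Over all tested genes, 4.14% were called lower and 3.73% higher in this comparison. Against WT, 7 of the 28 were lower and 1 higher in clone 2. Of the 34, 10 were lower and 3 higher, beside 12.5% lower and 16.9% higher over all tested genes.

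**Figure D3:**
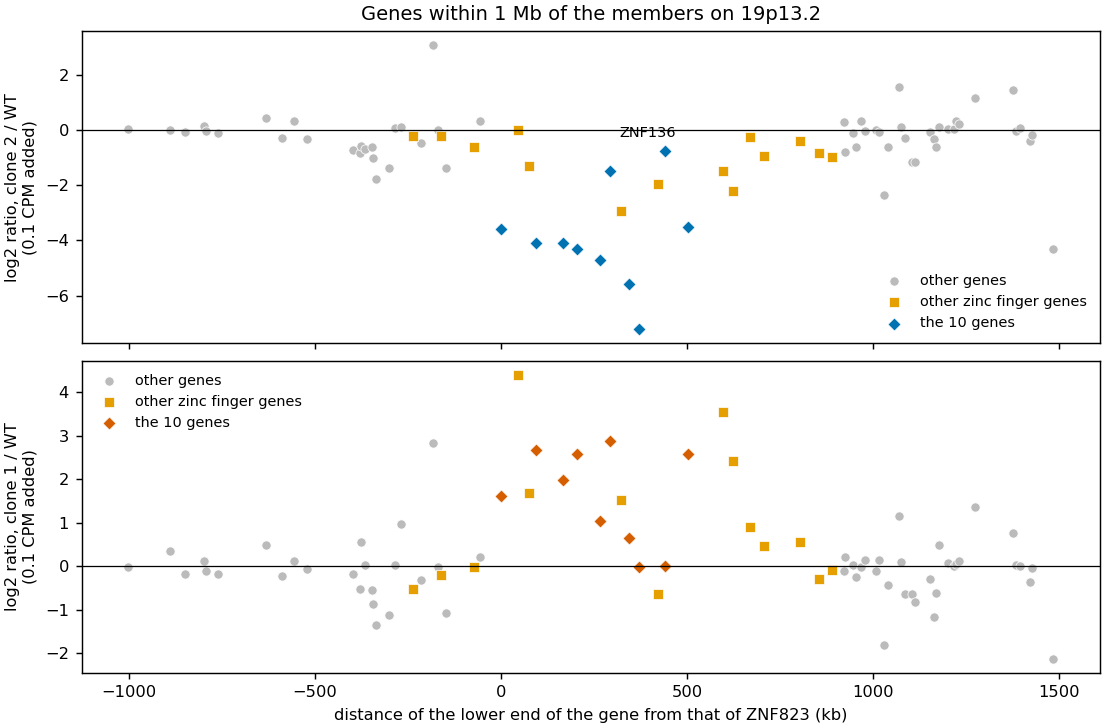
Log2 ratio of mean CPM to WT, with 0.1 CPM added to both, for genes with at least 10 counts in some library within 1 Mb of the 10 genes (x axis, distance of the lower end of the gene from that of ZNF823 in kb; upper panel, clone 2; lower panel, clone 1). In clone 2 the 10 genes form a trough from which ZNF136 stands out, and in clone 1 most of them lie above 0. The added 0.1 CPM limits how low a gene with few WT counts, such as ZNF433, can fall.

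On chromosome 19 as a whole, 247 zinc finger genes were tested, which fell into 16 groups of genes less than 1 Mb apart. The group that holds the 10 genes, from ZNF653 to ZNF791, had 22 tested genes. Of these, 14 had at most 3 counts in each clone 2 library, including the 9 genes chosen for such counts. Of the other 225, none did. In clone 1 against WT, 12.9% of the other 225 were higher and 2.22% lower, with a median log2 fold change of 0.09, beside 0.99 in the group of the 10 genes, a median that includes them and genes that passed the filter through clone 1 alone. In clone 2 against clone 1, 3.11% of the 225 were higher and 3.11% lower, with a median of −0.04.

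**Figure D4:**
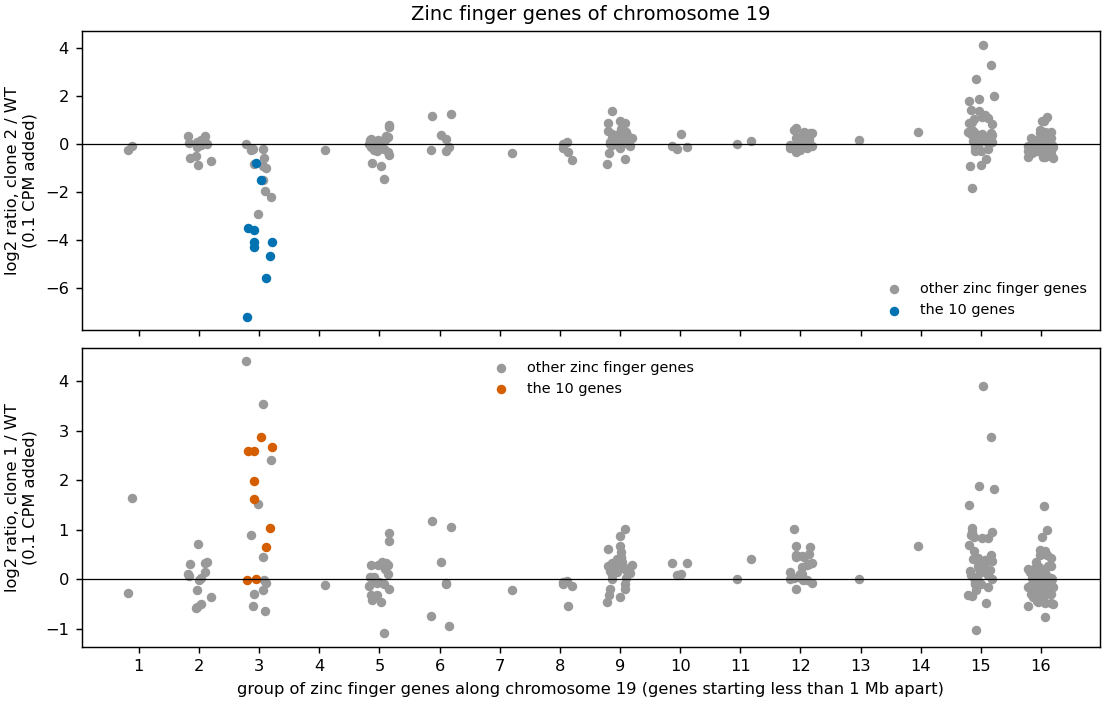
Log2 ratio of mean CPM to WT, with 0.1 CPM added, for tested zinc finger genes of chromosome 19 in 16 groups by position (upper panel, clone 2; lower panel, clone 1; points are genes, spread sideways for visibility). Group 3 holds the 10 genes, of which all but ZNF433 and ZNF136 lie below every gene of the other groups in clone 2.

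Across the genome, 9 genes had at most 3 counts in each clone 2 library and at least 20 in each of the other 4 libraries. Of these, 6 were among the 10 genes: ZNF823, ZNF69, ZNF700, ZNF433-AS1, ZNF844 and ZNF788P. Near-zero counts in clone 2 had chosen these 6, so their number among the 9 is a description. The other 3, named after their values were seen, were C3, which encodes a complement component, and CYP4F22, both elsewhere on chromosome 19, and ZNF717 on chromosome 3.

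The genes whose levels followed the mean profile of the 9 silent genes most closely over the 6 libraries were PCDHGA3 (Pearson r = 0.999), AC016205.1 (0.997), ZNF878 (0.993), ATP8B3 (0.982) and PCDHA6 (0.977), out of 2198 genes compared. With 3 pairs of libraries this is a likeness of group means and is given as a description. PCDHGA3 and PCDHA6 are clustered protocadherins, cell adhesion genes of chromosome 5. PCDHGA3 gave 87 and 100 reads in the WT pair, 182 and 161 in the pair of clone 1, and 27 and 22 in that of clone 2, and so kept counts in clone 2 where the zinc finger genes did not.

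A list of corepressors and chromatin proteins through which KRAB zinc finger proteins act was also compared. It also holds the zinc finger genes ZNF274, ZFP57, ZNF445 and ZNF75D. Of 30 listed and tested genes, 2 were higher and 1 lower in clone 1 against WT, where 16.0% of all tested genes were higher and 8.8% lower. The same 3 were called in clone 2, where these shares were 16.9% and 12.5%. CHD3, a nucleosome remodelling subunit, had log2 fold changes of 0.76 and 0.72 in clone 1 and clone 2, ZNF75D, a zinc finger gene, 0.99 and 0.98, and DNMT3B, a DNA methyltransferase also among the pluripotency markers, −0.93 and −1.39. TRIM28 differed by −0.10 in clone 1 and −0.01 in clone 2, SETDB1 by −0.26 and −0.14, and ZNF274, which binds zinc finger gene clusters, by 0.01 and −0.06, none of which was called.

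Some counts of these genes may be shared with neighbours, since neither the strand setting nor the treatment of multi-mapped reads is given in the sources used here. Exons of ZNF433-AS1 and ZNF433 overlap other genes over 12.2% and 17.5% of their length, each other included, and reads there cannot be assigned without strand. ZNF788P overlaps other annotated genes over 96.9% of its exons and ZNF844 over 45.3%, and ZNF700 over 17.4%. The annotation used for these overlaps differs from that of the counts. ZNF788P has 1994 exonic bases in it and a length of 5692 given with the counts, and ZNF44 has 10467 and 6061. The shares may therefore not hold for the exons that were counted. Of the 75-base windows of ZNF823 and ZNF136, 0% occurred in transcripts of other genes, while 2.59% of those of ZNF440 and 1.82% of those of ZNF69 did.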

How the data were processed

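RNA-seq counts of 2 WT, 2 clone 1 and 2 clone 2 libraries were used, and ChIP-seq was not analysed here. The authors deposited whole-number counts per gene, made per the submitters' processing notes with Trim Galore (0.6.2), HISAT2 (2.1.0) and featureCounts on GRCh38, beside gene lengths. The annotation release is not given in the sources used here. Low-count genes were removed with edgeR's filterByExpr, TMM scaling was applied, and the quasi-likelihood test of edgeR (4.0.16, glmQLFit and glmQLFTest, with limma 3.58.1 in R 4.3.3) was run on 3 groups, or on PCGF6-KO against WT (used for counts over all genes), with Benjamini-Hochberg adjustment over 17672 genes. Named are the 10 genes, genes within 1 Mb called in both clone 2 comparisons, and the 5 closest profiles. Of the corepressor list, the called genes, TRIM28, SETDB1 and ZNF274 are named. The members and lists were chosen with earlier results of these data known. Of 57133 genes, 36182 were matched to GENCODE release 44 by symbol and 890 by older symbol. Promoter sequences are RefSeq's. The alternatives were DESeq2 (1.42.0), other scalings, filters and thresholds, a replicate block and leaving out each library. The steps were tested on simulated data.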

Additional observations from a re-analysis of the deposited data

Results flagged for a closer look

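In 8 of the 10 genes, both clone 1 libraries lay above and both clone 2 libraries below both WT libraries, so that the clones moved in opposite directions from WT. The log2 fold changes of clone 1 against WT were 1.65 for ZNF823, 2.73 for ZNF440, 2.06 for ZNF69, 2.65 for ZNF700, 1.06 for ZNF433-AS1, 3.38 for ZNF433, 0.67 for ZNF844 and 2.69 for ZNF44. That the clones differ in direction was not tested for these genes. Clone 2 values chose them, so the fitted p-values of the clone 2 comparisons are not used.

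Of the 67 other tested genes within 1 Mb, 11 were lower in clone 2 than in clone 1 by edgeR's test of that difference. Over all tested genes, 4.14% were called lower. Of the 11, 8 were also lower than in WT. CCDC159, ZNF441 and ZNF799 were not called against WT. For the 8, the log2 difference of clone 2 against clone 1 was −0.72 for PLPPR2, −8.21 for ZNF878, −8.80 for ZNF563, −8.37 for ZNF442, −1.44 for ZNF443, −0.92 for ZNF791, −1.03 for MAN2B1 and −2.26 for CACNA1A. The values for ZNF878, ZNF563 and ZNF442 are fitted against 0 counts in clone 2 and are not bounds. These genes and ZNF441, also at 0 in clone 2, passed the filter through clone 1 alone. The count of 11 is therefore a description.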

How the results depend on the processing

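With adjusted p alone as the threshold, called genes were 8002 for clone 1 against WT, 8904 for clone 2 against WT, 3442 for clone 2 against clone 1 and 6556 for PCGF6-KO against WT, beside 4379, 5197, 1390 and 4167. DESeq2 called 888 genes in clone 2 against clone 1. Of the 11 tested 19p13.2 neighbours, 7 were lower in clone 2 against clone 1, beside 4.14% of all tested genes. Among the 7, ZNF441, ZNF878, ZNF563 and ZNF442 had 0 counts in clone 2 and passed the filter through clone 1 alone. The number is therefore a description. It was 3 with a filter of at least 10 counts in at least 4 libraries, which tests fewer genes, and 4 with DESeq2 (the cause was not tested). Leaving out each library in turn gave 4 to 8 neighbours, with the lowest number without replicate 2 of clone 1, and 4068 to 4322, 4794 to 5192, 1102 to 1419 and 3041 to 4251 called genes in the 4 comparisons above. Of 117 alternative log2 fold changes of the 10 genes in clone 1 against WT, 112 kept direction and call and 5 reversed direction, all in the 2 uncalled genes: ZNF788P gave 0.03 without replicate 1 of WT and 0.13 without replicate 1 of clone 1, and ZNF136 −0.015 with upper-quartile scaling, −0.13 without replicate 1 of WT and −0.05 without replicate 1 of clone 1. Over all libraries left out, ZNF788P ranged from −0.14 to 0.13 and ZNF136 from −0.13 to 0.17. With clone 1 in place of WT, the fold by which clone 2 was lower was 68.3 for ZNF823 and 326 for ZNF844, and at least 122 for ZNF440, 76.4 for ZNF69, 135 for ZNF700, 59.0 for ZNF433-AS1, 22.3 for ZNF433 and 76.4 for ZNF44. With library totals alone it was 218 for ZNF844, and at least 22.8 for ZNF700, 30.1 for ZNF433-AS1, 178 for ZNF788P and 12.5 for ZNF44.

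The replicate numbers did not pair the libraries, with correlations of deviations of 0.02 for WT with clone 1, 0.04 for WT with clone 2 and 0.13 between the clones. With the replicate block, called genes were 4420, 5233, 1484 and 3876 in the 4 comparisons above, and 8 of the 10 genes were called higher in clone 1. Across all alternatives this number was 7 or 8, and it was 7 with the filter of at least 10 counts in at least 4 libraries and without replicate 1 or replicate 2 of clone 1, where ZNF433 failed the filter and was not tested. With 2 libraries a group and at most 4 counts per gene in clone 2, differences among the silent genes in clone 2 were not detectable at this depth.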
